A study of Aspergillus luchuensis with 6 samples.

Results

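Narrow, unpaired main start clusters are places in the genome of Aspergillus luchuensis mut. kawachii where capped transcripts begin within a short stretch. This fungus is a white koji mould. No leading peak (defined below) of the other strand lies within 500 bp, though other opposite-strand starts can lie there. The clusters were found in CAGE data. CAGE, cap analysis of gene expression, sequences a short tag from the capped end of each transcript, and the tag's first base is where transcription began. Scaffold 1 (DF126447.1) and part of scaffold 2 (DF126448.1) were used. Positions with at least 2 tags over the 6 libraries were joined per strand when 20 bp or less apart, and clusters with at least 100 pooled tags were kept. From these 2875 clusters, leading clusters were taken in order of tags, dropping any whose peak lay under 2000 bp from a stronger peak of the same strand, which left 1211. Members had no leading peak of the opposite strand within 500 bp (803 unpaired clusters) and a width of 60 bp or less. The width limit used only the control tags, while the steps before it used the tags of all 6 libraries. Width is the distance, both ends counted, between the positions holding the 0.1 and 0.9 quantiles of tags summed over the 3 control libraries. The rule left 349 narrow clusters of 1211 leading clusters. The other 454 unpaired clusters are called broad, and the 408 leading clusters with a leading peak across are called paired.

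The tags came from 3 libraries of a sirD disruptant strain (strain label sirD) and 3 of a control strain (strain label ctrl4), with RNA from frozen rice koji, which is steamed rice overgrown by the mould. The sirD gene encodes sirtuin D, and the control carries no disruption of it as far as the labels say. Each group is 1 strain. The sources used here do not give the parent genotype, the culture time or whether replicates were separate cultures. P-values therefore measure only how far these libraries spread, and that spread may be technical. The sirD libraries held 1566641 to 1634987 tags on the scaffolds, and the control libraries 1419744 to 1556346. The disrupted gene was not located, so its level is not reported here.

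The shape of a start cluster is a well-known property of promoters. In animals, focused promoters often carry a TATA box or an initiator element that fixes the start at 1 base, while dispersed promoters start over a longer stretch. In budding yeast, RNA polymerase II scans downstream of a TATA element and commonly starts at several bases. Sirtuins are NAD-dependent protein deacylases, and several of them remove acetyl groups from histones.

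The narrow clusters lay on both scaffolds and both strands. Scaffold 1 held 84 on the plus and 110 on the minus strand, and scaffold 2 held 70 on the plus and 85 on the minus strand. They covered a wide range of levels, from 101 to 201530 pooled tags with a median of 1193. The 8 most abundant held 37.7% of the 2208122 tags in narrow clusters, and the 165 clusters with fewer than 1000 tags held 2.67%. Control widths had a median of 34 bp, and the middle part of the clusters, from the lower to the upper quartile, lay between 22 and 45 bp. Only 6 clusters were at most 2 bp wide. A further 10 were above 2 and up to 10 bp, 57 up to 20 bp, 77 up to 30 bp, 85 up to 40 bp, 63 up to 50 bp and 51 up to 60 bp. Narrow clusters made up 49.5% of the 188 unpaired clusters with up to 300 tags and 39.3% of the 107 with over 10000 tags.

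**Figure D1:**
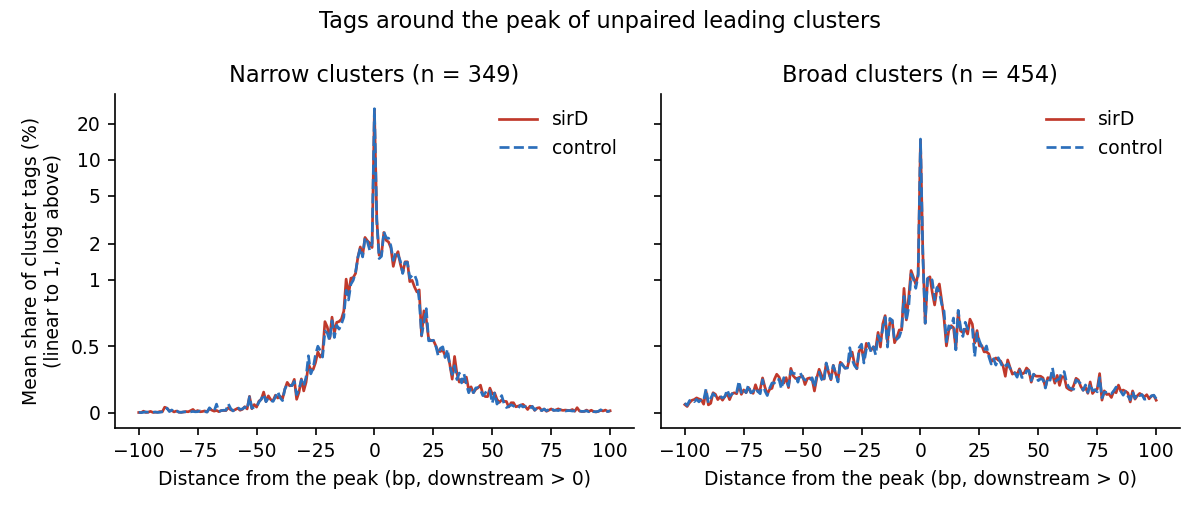
Mean share of a cluster's tags (%, linear up to 1 and logarithmic above) against distance from the peak (bp, downstream positive), with narrow clusters at left, broad clusters at right, sirD as a solid and control as a dashed line, and every cluster weighing the same. The peak position held 26.3% of the tags of a narrow cluster in sirD and 26.7% in the control on average, against 14.6% and 14.9% in broad clusters.

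Within a narrow cluster, a few positions carried most tags. The peak position, the one with the most pooled tags, held a median of 23.0% of the cluster's tags over the 6 libraries, with quartiles of 17.3% and 32.9%. In broad clusters the median was 12.7% and in paired clusters 18.0%. A median of 4 positions were enough to reach 50% of the tags in narrow clusters, against 8 in broad ones, although a narrow cluster listed a median of 46 positions with tags over 114 bp. These values are tied to the width that chose the clusters and are descriptions. In the average profile, positions within 30 bp of the peak held 89.3% of the tags in sirD and 89.7% in the control.

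The second-highest position lay close to the first. Its median distance was 7 bp in narrow clusters, 22 bp in broad clusters and 10 bp in paired clusters. Among the narrow clusters, 224 of 349 (64.2%) had it within 10 bp. The width that chose the clusters also limits this distance, so the contrast with broad clusters is a description. The most frequent distances were 4 bp (39 clusters), 6 bp (31 clusters) and 1 bp (30 clusters). The second-highest position lay downstream in 203 clusters and upstream in 146. Its tags were a median of 66.1% of those at the peak. More tags lay downstream of the peak than upstream in 218 clusters, and the reverse held in 130. The direction of this imbalance was not used by the rule, and broad clusters had 250 and 204.

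The 6 narrowest clusters put most of their tags on 1 or 2 bases. At 169858 on the plus strand of scaffold 2, a single base took nearly all tags, with 73, 58 and 59 tags in the sirD libraries and 57, 41 and 41 in the control libraries. The peak held 99.5% of the sirD tags and 97.8% of the control tags there. At 462051 on the minus strand of scaffold 2, the third most abundant narrow cluster, libraries had 18405, 18449 and 17562 tags in sirD and 20965, 19599 and 17226 in the control. That peak held 85.6%, 85.0% and 86.5% of the tags in the sirD libraries and 85.6%, 85.4% and 86.9% in the control libraries, so its share varied by under 2 percentage points between libraries although 132 positions of the cluster had tags.

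The other 4 were of different abundance. At 147549 on the minus strand of scaffold 2 (41317 pooled tags) the peak took 52.7% of the tags in sirD and 50.9% in the control, and the neighbouring base had 77.4% as many tags as the peak. At 1033285 on the plus strand of scaffold 2 the peak took 57.1% in sirD and 65.1% in the control. It took 69.4% in sirD and 75.8% in the control at 163283 on the minus strand of scaffold 2, and 63.0% in sirD and 83.3% in the control at 628935 on the minus strand of scaffold 1, which had only 54 tags in each strain. Each of these 4 had its second-highest position 1 bp from the peak. None of the 6 differed in level between strains by edgeR's quasi-likelihood test, with adjusted p from 0.0537 (163283) to 0.871 (628935). In all, 24 narrow clusters had over 50% of their tags at 1 base, and 49 had under 15%.

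Widths were much the same in the disruptant, whose tags were not used for the width limit. They did count among the pooled tags that set the cluster bounds, the clusters kept, the peaks and the pairing. The sirD widths were thus measured within bounds that sirD tags helped to set, and their match is a description. Over the 3 sirD libraries, 338 of 349 narrow clusters (96.8%) were again at most 60 bp wide, against 23 of 454 broad clusters (5.07%). The median width was 34 bp in sirD and 34 bp in the control for narrow clusters, and 113.5 bp in sirD and 112.5 bp in the control for broad clusters. The 2 widths differed by at most 5 bp in 258 narrow clusters. They were equal in 113, larger in sirD in 138 and smaller in sirD in 98, an imbalance that choosing small control widths favours. Broad clusters had 205 larger and 199 smaller in sirD. Because control widths chose the members, no test of width between strains was made. Pearson's correlation of log2 widths between strains was 0.919 across the 349 clusters, as a description of clusters that share libraries.

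Single libraries gave the same picture. The median width of the narrow clusters was 34, 34 and 33 bp in the sirD libraries and 34, 34 and 33 bp in the control libraries. When clusters were instead chosen on the tags of all 6 libraries (352 clusters), the medians were 34, 35 and 33 bp in sirD and 34, 34 and 33 bp in the control. The number at or under 60 bp was 330, 324 and 331 of 349 in the sirD libraries and 337, 343 and 337 in the control libraries. Control widths chose the members, which favours higher counts in the control libraries. Of the broad clusters, chosen by a control width above 60 bp, 35, 31 and 30 were at or under 60 bp in the sirD libraries. In the control libraries 17, 21 and 30 were. All 3 sirD libraries were at or under 60 bp in 309 clusters.

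**Figure D2:**
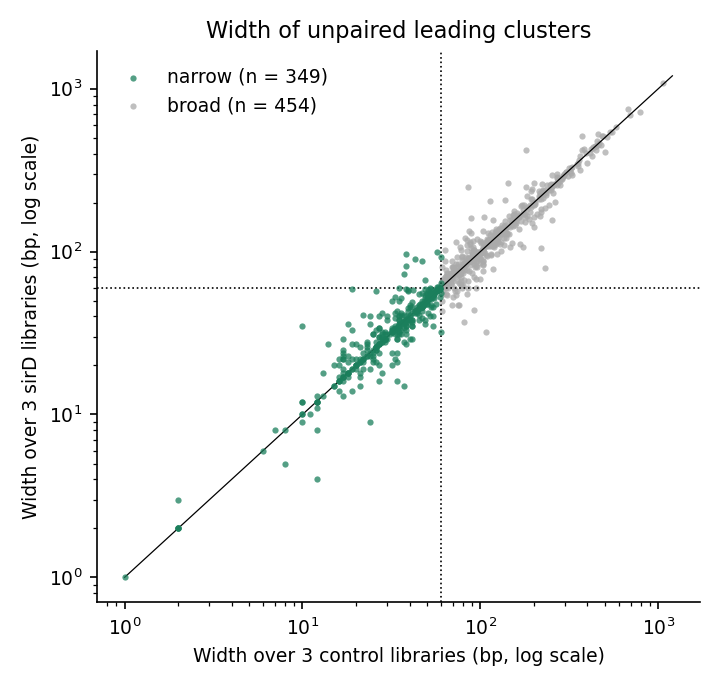
Width over the 3 sirD libraries (bp, log scale) against width over the 3 control libraries (bp, log scale) for 349 narrow and 454 broad unpaired clusters, with the line of equality and dotted lines at 60 bp. Of the narrow clusters, 338 lie below the dotted horizontal line and 11 above it.

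The threshold cut through a continuous range. The clusters just inside, at 60 bp in the control, included 1923770 on the minus strand of scaffold 1 (64 bp in sirD), 65929 on the same strand (93 bp in sirD) and 1415982 on the minus strand of scaffold 2 (32 bp in sirD). Just outside, at 61 bp in the control, were 477333 on the plus strand of scaffold 1 (65 bp in sirD), 602438 on its minus strand (80 bp in sirD) and 203018 on the minus strand of scaffold 2 (62 bp in sirD). Fewer tags went with less stable widths. Among narrow clusters with 1000 or more tags, 152 of 184 kept the width within 5 bp, against 106 of 165 with fewer tags.

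The 3 clusters that were wider in sirD by the most, and the 3 narrower by the most, had 101 to 1677 pooled tags. At 1061111 on the plus strand of scaffold 2 the width was 97 bp in sirD, against 38 bp in the control. Its single-library widths were 70, 97 and 85 bp in sirD and 39, 38 and 38 bp in the control, so the strains did not overlap. The cluster was picked for its large width difference, which favours such separation, so the separation is no further evidence. Its level fell 1.86-fold (log2 −0.90, SE 0.16, adjusted p = 0.000311 by edgeR). At 1865417 on the plus strand of scaffold 1 the width was 90 bp in sirD and 43 bp in the control, with 84 tags in sirD and 17 in the control. None of those 17 control tags lay at the peak of the pooled tags. At 374666 on the plus strand of scaffold 2 the width was 82 bp in sirD and 38 bp in the control, but single libraries ran from 41 to 101 bp in sirD and from 37 to 72 bp in the control and overlapped. In the other direction, widths were 32 bp in sirD and 60 bp in the control at 1415982 on the minus strand of scaffold 2. They were 15 bp in sirD and 37 bp in the control at 463318 on its plus strand, and 35 bp in sirD and 54 bp in the control at 1973108 on its minus strand.

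The peak itself was usually at the same base. In 278 of 349 narrow clusters (79.7%) the position with the most tags was identical in the pooled sirD and the pooled control tags, and in 303 it was within 5 bp. It was identical in 164 of the 184 clusters with 1000 or more tags. For broad clusters the identical count was 308 of 454 (67.8%). All 6 single libraries had the same highest position in 180 narrow clusters, and in 135 of those with 1000 or more tags. The mean start moved between strains by a median of 1.19 bp, regardless of direction, against 4.74 bp in broad clusters. Width limits how far a peak or mean start can move, so these contrasts with broad clusters are descriptions.

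Start-site usage within clusters was compared by edgeR's diffSpliceDGE, which asks whether the share of tags at a position differs between strains. Of 243 narrow clusters with several testable positions, 3 passed an adjusted p of 0.05. Over all 1286 clusters tested, 23 (1.79%) did, so the 1.23% among narrow clusters was near the background. At 1885923 on the plus strand of scaffold 1, the peak took 21.1%, 21.0% and 21.0% of the tags at positions of 10 or more tags in the sirD libraries and 23.0%, 23.8% and 23.3% in the control libraries. A position 19 bp upstream took 8.23%, 9.14% and 8.36% in sirD and 6.34%, 6.62% and 6.40% in the control (adjusted p = 0.0307 for the cluster). Bases named for usage gained or lost the most share and were picked after their values were seen.

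At 1599392 on the minus strand of scaffold 1, a base took about as large a share as the peak in sirD and less than the peak in the control. The peak of the pooled tags took 17.6% ± 1.03 in sirD and 21.7% ± 0.249 in the control (SD, n = 3), and a base 5 bp upstream took 17.6% ± 0.617 in sirD and 14.4% ± 1.76 in the control (adjusted p = 0.0442 for the cluster by edgeR). At 1220184 on the minus strand of scaffold 2, a base 28 bp upstream of the peak took 2.68% ± 0.399 in sirD and 4.02% ± 0.496 in the control (SD, n = 3, adjusted p = 0.0484 for the cluster by edgeR). That cluster was also 1.62-fold higher in sirD in level (adjusted p = 0.000561 by edgeR). These calls depended on single libraries. Without sirD replicate 1 or 3, or without control replicate 1 or 3, no narrow cluster passed. Of the 249 or 250 narrow clusters tested in these settings, 10 to 19 were below an unadjusted p of 0.05 by the same test. These unadjusted counts are no evidence of changed usage. Without sirD replicate 2 or control replicate 2 only 1885923 of the 3 did (adjusted p = 0.0303 without sirD replicate 2, 0.0163 without control replicate 2). Its adjusted p was 0.481 without sirD replicate 1, 0.723 without sirD replicate 3, 0.879 without control replicate 1 and 0.064 without control replicate 3.

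The surroundings of the narrow clusters were not empty. The opposite strand had tags within 500 bp of the peak in all 349, with a median of 55 pooled tags, or 3.55% of the cluster's own tags. In broad clusters the median was 74 tags (3.25%). In 264 narrow clusters more of these opposite-strand tags lay upstream of the peak than downstream, and in 79 more lay downstream. Broad clusters leaned the same way, with 304 and 139. The rule excluded opposite leading peaks on both sides alike. The upstream share of the summed opposite-strand tags was 76.3%, 74.7% and 76.1% in the sirD libraries and 73.9%, 76.7% and 77.6% in the control libraries, with overlap between the strains. In 53 narrow clusters the opposite strand had more than 50% as many tags as the cluster, and 47 of these had fewer than 1000 tags. The rule excluded only leading peaks, and the highest opposite-strand count near a narrow cluster was 17275 tags.

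On the same strand, 233 of 349 narrow clusters (66.8%) had at least 1 other cluster of 100 or more tags within 2000 bp. These neighbours numbered 314 downstream and 199 upstream. Broad clusters had 432 on each side, and paired clusters 433 downstream and 152 upstream. The distance to the next leading peak of the opposite strand had a median of 2150 bp for narrow and 1805.5 bp for broad clusters, with 500 bp as the lower limit set by the rule. One narrow cluster lay within 2000 bp of a stretch of scaffold 2 where the table had no rows, so its surroundings were seen only in part.

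Tag levels in sirD and the control were compared by edgeR's quasi-likelihood test on all 4083 clusters of the table that passed its filter on low counts, and all 349 narrow clusters were among them. Levels are in CPM, tags scaled to 1e6 tags of the tested clusters after TMM scaling. A cluster was called changed at an adjusted p below 0.05 (Benjamini-Hochberg). Of the narrow clusters, 109 (31.2%) were called, 51 higher (14.6%) and 58 lower (16.6%) in sirD. Over all tested clusters 24.5% were called, 10.4% higher and 14.0% lower. The narrow share was close to those of all leading clusters (376 of 1211, 31.0%) and of broad clusters (157 of 454, 34.6%). Broad clusters had 73 higher and 84 lower, and paired clusters 38 higher and 72 lower of 408. The difference between these classes was not tested.

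The median log2 difference was −0.01 over the narrow clusters and −0.00 over all tested clusters. Among the called narrow clusters it was 0.76 for the higher and −1.09 for the lower ones, where all tested clusters had 0.94 and −1.21. At least 2-fold changes were seen in 14 higher and 34 lower narrow clusters, 13.8% of the narrow clusters in both directions together, and the share over all tested clusters was also 13.8%. Libraries of the strains did not overlap in 161 narrow clusters (46.1%), against 39.7% of all tested clusters. The narrow share was close to that of all leading clusters (46.5%), with 48.7% of broad and 44.4% of paired ones. Of the 194 narrow clusters on scaffold 1, 28 were higher and 31 lower, and of the 155 on scaffold 2, 23 were higher and 27 lower. By control width, there were 0 higher and 0 lower of 6 clusters up to 2 bp, and 3 and 2 of 10 up to 10 bp. Up to 20 bp there were 9 higher and 13 lower of 57, and up to 30 bp 15 and 11 of 77. Up to 40 bp there were 14 and 12 of 85, and up to 50 bp 8 and 8 of 63. Up to 60 bp there were 2 and 12 of 51. Each class starts where the class before ended, and the counts were not tested.

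**Figure D3:**
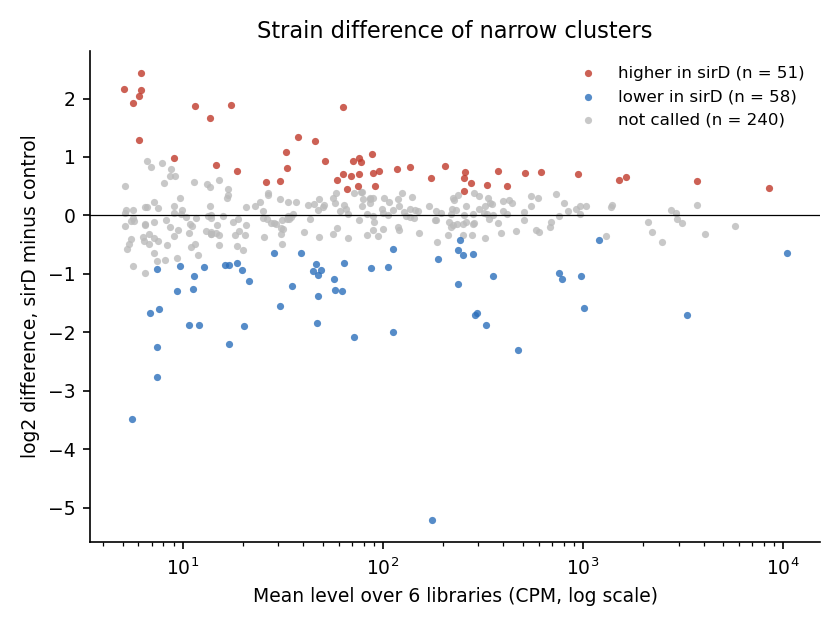
Log2 difference between strains (sirD minus control) against the mean level over 6 libraries (CPM, log scale) for the 349 narrow clusters. The 51 higher clusters are in red, the 58 lower in blue and the 240 not called in grey.

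The most abundant narrow clusters changed little or moderately, with 1 exception. At 246315 on the minus strand of scaffold 1, the largest of all, there were 26397, 26732 and 29358 tags in the sirD libraries and 40396, 38206 and 40441 in the control libraries. Every sirD library was below every control library, and the level fell 1.56-fold (log2 −0.64, SE 0.13, adjusted p = 0.000853). At 1909414 on the plus strand of scaffold 2 there were 32170, 35424 and 33053 tags in sirD and 18807, 26532 and 22024 in the control. The level rose 1.39-fold (log2 0.47, SE 0.14, adjusted p = 0.0143), and without sirD replicate 2 it missed the threshold (adjusted p = 0.0519). At 1472094 on the same strand the level rose 1.51-fold, to 4474 ± 343 CPM in sirD against 2969 ± 583 in the control (SD, n = 3, adjusted p = 0.00532 by edgeR).

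The exception was 158128 on the minus strand of scaffold 2, with 6121, 4539 and 5072 tags in the sirD libraries and 20300, 13891 and 13751 in the control libraries. It fell 3.27-fold (log2 −1.71, SE 0.16, adjusted p = 4.95e-07), while its peak kept 53.2% of the tags in sirD and 54.0% in the control. The other 4 of the 8 most abundant did not pass the test. They were 462051 (5365 ± 135 CPM in sirD and 6116 ± 351 in the control, adjusted p = 0.29 by edgeR) and 1885923 (3618 ± 694 CPM in sirD and 4506 ± 1120.3 in the control, adjusted p = 0.201). At 29287 on the plus strand of scaffold 1 there were 3951 ± 174 CPM in sirD and 3488 ± 87.2 in the control (adjusted p = 0.32), and at 1239243 on the plus strand of scaffold 2 there were 2977 ± 201 CPM in sirD and 3273 ± 80.8 in the control (SD, n = 3, adjusted p = 0.469). The cluster at 1885923 fell past the threshold without control replicate 1 (log2 −0.52, adjusted p = 0.00868).

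The clusters at 246315 and 158128 weighed on the total. Narrow clusters held 23.2%, 22.7% and 23.0% of the scaffold tags in the sirD libraries and 25.3%, 24.5% and 25.3% in the control libraries. Every sirD library was below every control library, a difference of −2.09 percentage points (two-sided exact permutation test, p = 0.1, the smallest that 3 against 3 allows). Those 2 clusters together made most of it. The first took 1.72% of the scaffold tags in sirD and 2.71% in the control, and the second 0.328% in sirD and 1.09% in the control. Without both, the narrow clusters held 20.9% ± 0.139 in sirD and 21.3% ± 0.225 in the control (SD, n = 3, difference −0.33 percentage points). As a share of the tags in unpaired leading clusters, narrow ones had 44.6% ± 0.229 in sirD and 47.2% ± 0.506 in the control (SD, n = 3, exact permutation p = 0.1). Leaving out these 2, which were picked after seeing the data because their share dropped most, moves the difference towards sirD by the way they were picked. Without them the unpaired share came to 40.7%, 40.6% and 40.6% in the sirD libraries and 39.5%, 40.2% and 40.3% in the control libraries.

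**Figure D4:**
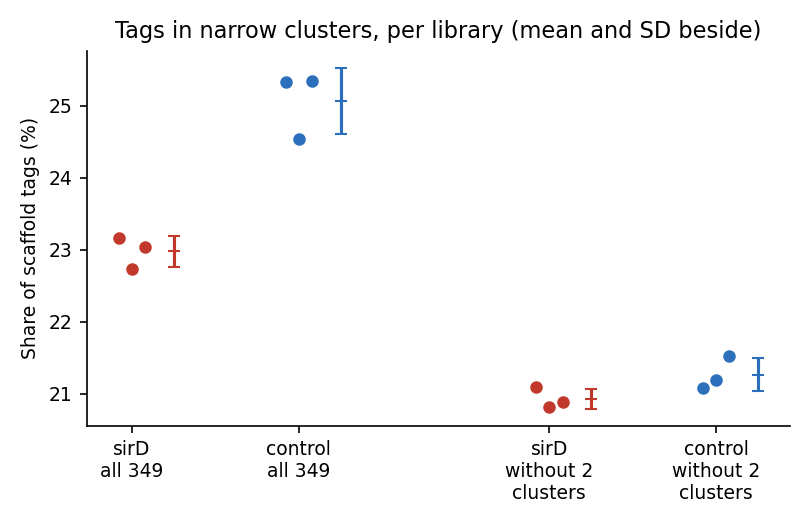
Share of the scaffold tags that lay in narrow clusters (%) in each library, with mean and SD beside the points, for sirD and control over all 349 clusters and without the clusters at 246315 and 158128. The strains are apart by 2.09 percentage points with all clusters and by 0.33 without these 2, and the axis does not start at 0.

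The narrow clusters with the smallest p fell between 2.06-fold and 37.1-fold. The first was 1165270 on the plus strand of scaffold 2, with 33, 30 and 30 tags in the sirD libraries and 672, 970 and 1535 in the control libraries (log2 −5.21, SE 0.29, adjusted p = 3.25e-10). The most used base was the same, with 81.8%, 70.0% and 46.7% of the tags in the sirD libraries and 63.5%, 68.7% and 67.2% in the control libraries. Widths from these few sirD tags were 2, 45 and 80 bp, against 26 bp in each control library. The next in fold was weak, 1327965 on the same strand, with 3, 4 and 2 tags in sirD and 38, 27 and 32 in the control (log2 −3.48, SE 0.42, adjusted p = 7.1e-06).

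The other lower clusters ranged from 20.4 to 1553 CPM in sirD. At 270545 on the plus strand of scaffold 2, there were 357, 666 and 584 tags in sirD and 3139, 2245 and 2044 in the control, a 4.96-fold drop (log2 −2.31, SE 0.20, adjusted p = 1.58e-07), with a width of 20 bp in both strains. At 886374 on the minus strand of scaffold 1 there were 165, 127 and 160 tags in sirD and 717, 457 and 512 in the control (4.01-fold lower, adjusted p = 3.17e-07). No library of 1 strain reached the range of the other in these clusters. At 1979538 on the minus strand of scaffold 2, 140.0 ± 16.5 CPM in sirD stood against 516 ± 55.9 in the control (SD, n = 3, 3.69-fold lower, adjusted p = 5.89e-08 by edgeR).

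The lower group held 4 more. At 522677 on the plus strand of scaffold 1 the level was 141 ± 30.8 CPM in sirD and 449 ± 37.5 in the control (3.18-fold lower). Its 2 strongest bases, 3 bp apart, had nearly equal pooled tags. At 1841760 on the plus strand of scaffold 2 it was 20.4 ± 4.85 CPM in sirD and 73.4 ± 5.53 in the control (log2 −1.85), and at 1737628 on that strand 136 ± 48.5 in sirD and 443 ± 94.7 in the control (3.27-fold lower). At 1062880 on the plus strand of scaffold 1 it was 638 ± 50.2 CPM in sirD and 1314 ± 42.3 in the control (2.06-fold lower, SD, n = 3, adjusted p = 1.25e-05 by edgeR), and every library gave it a width of 20 bp.

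Clusters that rose did so by 1.80-fold to 5.41-fold among the 10 with the smallest p. At 1669181 on the minus strand of scaffold 1 there were 295, 350 and 355 tags in the sirD libraries and 88, 111 and 59 in the control libraries, a 3.62-fold rise (log2 1.86, SE 0.19, adjusted p = 9.06e-07). Its peak took 21.9% of the tags in sirD and 13.2% in the control, but its start usage did not pass the test (adjusted p = 1.00 by edgeR's diffSpliceDGE). At 1801932 on the plus strand of scaffold 2 there were 109, 102 and 66 tags in sirD and 20, 23 and 26 in the control (3.71-fold higher, adjusted p = 2.84e-05), with more than 49% of the tags at 1 base in both strains. At 1849629 on that strand there were 64, 51 and 68 tags in sirD and 16, 15 and 15 in the control (3.68-fold higher, adjusted p = 4.9e-05).

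The largest fold among them was at a weak start. At 2030787 on the minus strand of scaffold 1 there were 48, 29 and 29 tags in sirD and 10, 5 and 3 in the control, the 5.41-fold rise (log2 2.44, SE 0.41, adjusted p = 0.000209). At 425166 on the minus strand of scaffold 2 the level was 54.2 ± 14.8 CPM in sirD and 21.2 ± 2.18 in the control (2.55-fold higher). At 578925 on the plus strand of scaffold 1 it was 64.7 ± 8.27 CPM in sirD and 26.7 ± 10.7 in the control (2.41-fold higher).

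The other 4 rose 1.80-fold to 2.08-fold. At 1848118 on the plus strand of scaffold 1 the level was 119 ± 19.2 CPM in sirD and 57.6 ± 3.75 in the control (2.08-fold higher). At 671377 on the minus strand of scaffold 1 there were 334, 341 and 348 tags in sirD and 182, 192 and 111 in the control (1.97-fold higher). At 1293940 on the plus strand of scaffold 1 there were 364, 309 and 357 tags in sirD and 189, 168 and 152 in the control (1.88-fold higher). At 1874838 on the minus strand of scaffold 2 there were 928, 807 and 935 tags in sirD and 450, 536 and 402 in the control, a 1.80-fold rise with the same width of 37 bp in both strains (SD, n = 3 throughout, highest adjusted p of the 10 = 0.000349 by edgeR). In all 20 clusters the 3 sirD libraries did not overlap the 3 control libraries. The 20 were picked by p on these same libraries, which favours such separation, so it is no further evidence.

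**Figure D5:**
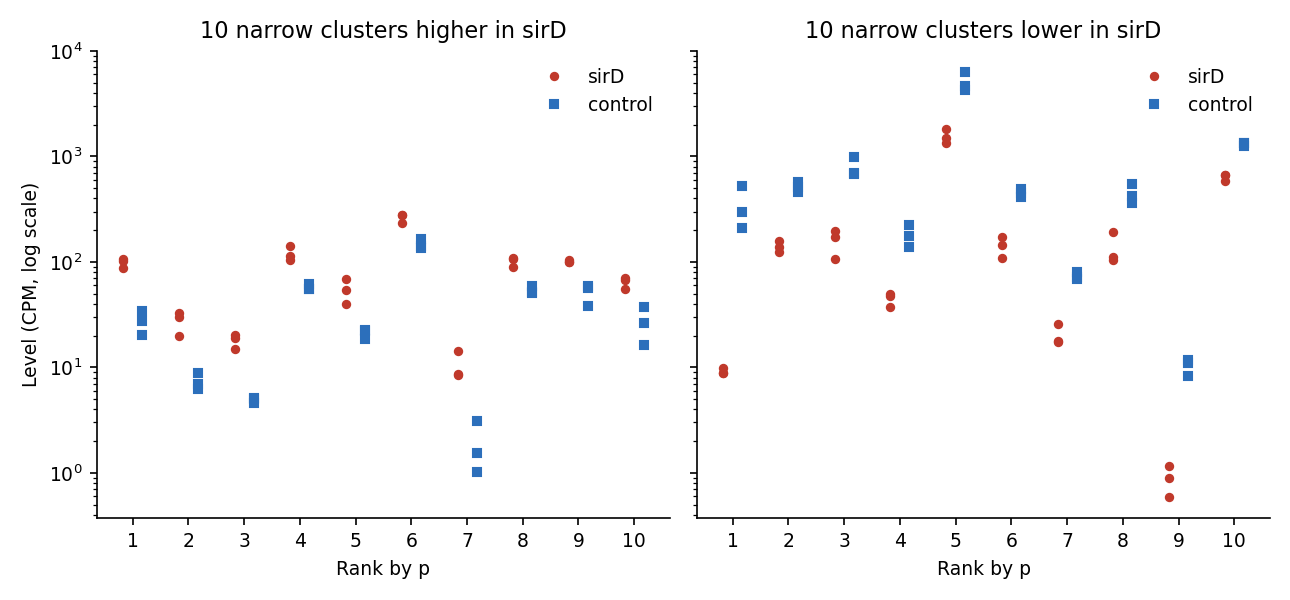
Level of single libraries (CPM, log scale) for the 10 narrow clusters higher (left) and the 10 lower (right) in sirD with the smallest p, ranked by p, with sirD as red circles left of control as blue squares. In none of the 20 do the strains overlap, and the 20 were picked by p on these same libraries.

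Neighbouring starts were called in the same direction more often than in the other. Neighbours were counted for each narrow cluster in turn, so a cluster near more than 1 of them counts more than once. The shares over all tested clusters count each cluster once. Within 2000 bp of the 58 lower clusters, 147 other tested clusters lay on the same strand, of which 65 (44.2%) were called lower and 0 higher by edgeR, and 132 had a log2 difference below 0. Around the 51 higher clusters there were 116, of which 33 (28.4%) were called higher and 4 lower. Clusters this close on 1 strand can belong to 1 gene. On the opposite strand, 47 of 123 tested clusters (38.2%) near the lower clusters were called lower and 2 higher, against 14.0% called lower over all tested clusters. Near the higher clusters 12 of 93 (12.9%) were called higher and 5 lower, close to the 10.4% called higher over all tested clusters. Around the 240 narrow clusters that were not called, 56 of 547 same-strand neighbours (10.2%) and 70 of 450 opposite-strand ones (15.6%) were called in the direction of the cluster's own sign, and 30 same-strand and 51 opposite-strand ones in the other direction. The difference between these shares was not tested.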

How the data were processed

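The authors deposited 1 table of whole-number tag counts per position and strand, with 6 columns that match the sample descriptions. The submitters' processing notes name FastQC, BWA and bedtools. The sources used here do not give mapping settings, the treatment of multiply mapping reads or the genome build. The table had 1048575 rows, of which 469501 held 0 tags in every library, and scaffold 2 had no rows at 47455 to 100011 and 474756 to 1000002, so totals are not full depths. Positions count from 0 in the table, and 1 was added. No genome sequence in these coordinates was used, and no gene names were assigned.

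Clusters were built in Python 3.11.15 as the report describes. The highest position was the peak (lowest coordinate on ties). All 36260 clusters entered edgeR 4.0.16 (R 4.3.3, limma 3.58.1): filterByExpr, TMM, quasi-likelihood test without covariates, Benjamini-Hochberg adjustment. SE is the log2 difference divided by the square root of the F statistic. Usage was tested by diffSpliceDGE (Simes p) on positions with 10 or more pooled tags. Shares used exact permutation tests (scipy 1.17.1). Scripts were tested on simulated data. Named clusters are the 8 with most tags, the 6 narrowest, the 10 of each direction with the smallest p, those called for usage, and 3 at each side of the width threshold and of the change in width. Members and rules were chosen with earlier results of these data known. Alternatives included DESeq2 1.42.0.

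Same-numbered libraries had deviations correlated at 0.0937, 0.0590 and 0.0418, and differently numbered ones at −0.0962 to 0.0458. Pairing was not assumed, because the labels do not say that a number marks a shared culture. A replicate block was run as an alternative.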

Additional observations from a re-analysis of the deposited data

How the results depend on the processing

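Of the 349 narrow clusters, 51 higher and 58 lower became 41 to 51 higher and 49 to 66 lower with any 1 library left out, and a replicate block gave 56 higher and 65 lower. Both counts stayed within 1.5 times under the other scalings, no filter, DESeq2 and an adjusted p below 0.01. They also did so with clusters joined at 10 bp, other leading and pairing distances, a width limit of 80 bp, thinned control tags and widths from all 6 libraries. Those settings changed the number of members, which ran from 271 to 465, so the counts are not directly comparable. Between 31.4% and 32.6% of the members were called in them, against 31.2% in the main setting. A 2-fold minimum left 14 higher and 34 lower. A width limit of 40 bp left 41 higher and 38 lower among 235 clusters. Quantiles of 0.05 to 0.95 left 40 higher and 36 lower among 244. In these 2 settings the lower clusters no longer outnumbered the higher ones. Across other fits, direction and call stayed the same in 240 of 240 combinations for the 20 clusters with the smallest p, with adjusted p up to 0.00302 (edgeR or DESeq2). Those 20 were picked by p on the same data, which favours this outcome. The replicate block also put the cluster at 1885923 past the threshold (log2 −0.30, adjusted p = 0.042 by edgeR).

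The 3 clusters with changed start usage became 0 to 1 with 1 library left out, 0 without the filter (20 of 346 below an unadjusted p of 0.05 by diffSpliceDGE), 0 at an adjusted p below 0.01 (15 of 243 below an unadjusted p of 0.05), 4 with the replicate block and 4 with positions joined within 5 bp. In the last setting only 1885923 of the 3 passed, with adjusted p of 0.119 at 1599392 and 1.00 at 1220184 (diffSpliceDGE). Why the calls differed between these settings was not tested. The labels give same-numbered libraries nothing in common but the number.

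The 338 clusters that were at most 60 bp wide in sirD became 222 of 244 with quantiles of 0.05 to 0.95 and 210 of 235 with a limit of 40 bp. With 50 tags drawn per strain it was 301 of 338 clusters, and 331 to 333 of 349 without 1 sirD library. The share of scaffold tags kept its sign in each alternative. The share of unpaired leading tags turned to 0.66 percentage points higher in sirD without the clusters at 246315 and 158128, an alternative chosen after seeing the data and for their drop, and kept its sign in the others. Weak clusters limit precision, since 165 had fewer than 1000 tags over 6 libraries. Without rows for 2 stretches of scaffold 2, clusters there were not analysed here.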
